A study of Mus musculus with 4 samples.

Results

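Interferon-stimulated genes are the antiviral genes that a cell switches on when interferon reaches it, and 39 of them were followed here in 3T3-L1 cells. 3T3-L1 is a clonal line of mouse preadipocytes, which hormones can turn into adipocytes in the dish. A member was any gene of a written list whose symbol stood as the gene name of a non-control probe on the arrays. By this rule 35 of the 39 listed genes were found, with 52 probes, among 27745 gene names on the array. Irf9, Irgm1 and Dhx58 stand there under older symbols and are described below without being counted, and Xaf1 matched no name. All cells received insulin, dexamethasone and IBMX from day 0, and RNA was taken on day 2. The groups were a control with 0.1% DMSO alone and cells given 100 μg/mL bilberry extract, 100 nM delphinidin or 100 nM cyanidin, and by the study's methods the medium of the treated cells held DMSO at 0.1% as well. Each group was 1 Agilent Whole Mouse Genome array read in 1 colour, so there were 4 arrays and no replicates. Every difference below is thus one between single arrays, with no test across samples, and how far a second culture would differ is not known.

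Cells sense viral nucleic acid with receptors such as RIG-I (Ddx58) and MDA5 (Ifih1), which act through the transcription factors Irf3 and Irf7 to induce type I interferon. Interferon binds its receptor, the kinases Jak1 and Tyk2 activate Stat2, which enters the complex ISGF3 together with Irf9. ISGF3 binds the interferon-stimulated response element, a promoter motif built on repeated GAAA, and the genes that carry it encode proteins that block viral RNA, translation and budding. Fibroblasts and preadipocytes respond to interferon in this way and also keep a low level of the pathway without infection. The labels name no interferon, virus or nucleic acid among the additions.

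The response element was looked for in promoter windows from RefSeq (build GRCm38.p6), each from 250 bases before to 50 bases after an annotated start. The motif searched was GAAA, any 2 bases and GAAA again, on both strands, and overlapping matches were counted. A window was given for 30 of the 39 listed genes, and 16 of these 30 genes (53.3%) held the motif, against 3.99% of the 27025 symbols with a window. A match is a description of the letters and not a measured binding site. The stretches below are shown because they set genes that were lower with bilberry (Ifit1 and Gbp3) beside their family neighbours (Ifit3 and Gbp2) and beside genes whose probes hardly differed between the arrays (Isg15 and Bst2). The file places the Isg15 probe on chromosome 17 (mm8) while RefSeq has the gene on chromosome 4, so what that probe reads is uncertain. Capitals mark the matches, which begin with TTTC where the motif lies on the other strand.
Ifit1, chr19:34640755-34640843, plus strand: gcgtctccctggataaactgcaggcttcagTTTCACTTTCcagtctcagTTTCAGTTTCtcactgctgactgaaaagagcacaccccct
Ifit3, chr19:34583343-34583446, plus strand: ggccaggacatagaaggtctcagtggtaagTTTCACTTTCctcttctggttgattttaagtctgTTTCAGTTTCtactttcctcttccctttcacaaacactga
Gbp3, chr3:142559969-142560043, plus strand: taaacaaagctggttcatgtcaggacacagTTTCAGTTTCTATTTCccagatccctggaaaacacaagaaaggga
Gbp2, chr3:142620574-142620643, plus strand: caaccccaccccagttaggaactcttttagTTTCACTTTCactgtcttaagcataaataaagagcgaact
Isg15, chr4:156200845-156200926, minus strand: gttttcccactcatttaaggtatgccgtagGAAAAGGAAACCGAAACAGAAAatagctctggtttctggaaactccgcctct
Bst2, chr8:71537557-71537632, minus strand: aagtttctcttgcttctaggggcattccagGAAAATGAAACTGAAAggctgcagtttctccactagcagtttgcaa

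The matches of Ifit1 and of Ifit3 stood apart as 2 separate copies, while Gbp3 and Bst2 each had 2 overlapping matches and Isg15 had 3. Members with and without the motif overlapped in their bilberry ratios. The 12 measured members with a match had a median log2 ratio of bilberry over DMSO of -0.41, between -1.50 and 0.31, and 3 of them (Ifih1, Ifit1 and Gbp3) were lower by more than 2-fold. The 9 measured members with a window and no match had a median of 0.10, between -2.14 and 0.26, and 2 of these (Ifit2 and Ifi44) were lower by more than 2-fold. Over all genes measured with bilberry 6.65% were lower by more than 2-fold and the median was 0.17. The other 3 members that were lower (Mx2, Iigp1 and Trim14) had no window here.

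**Figure D1:**
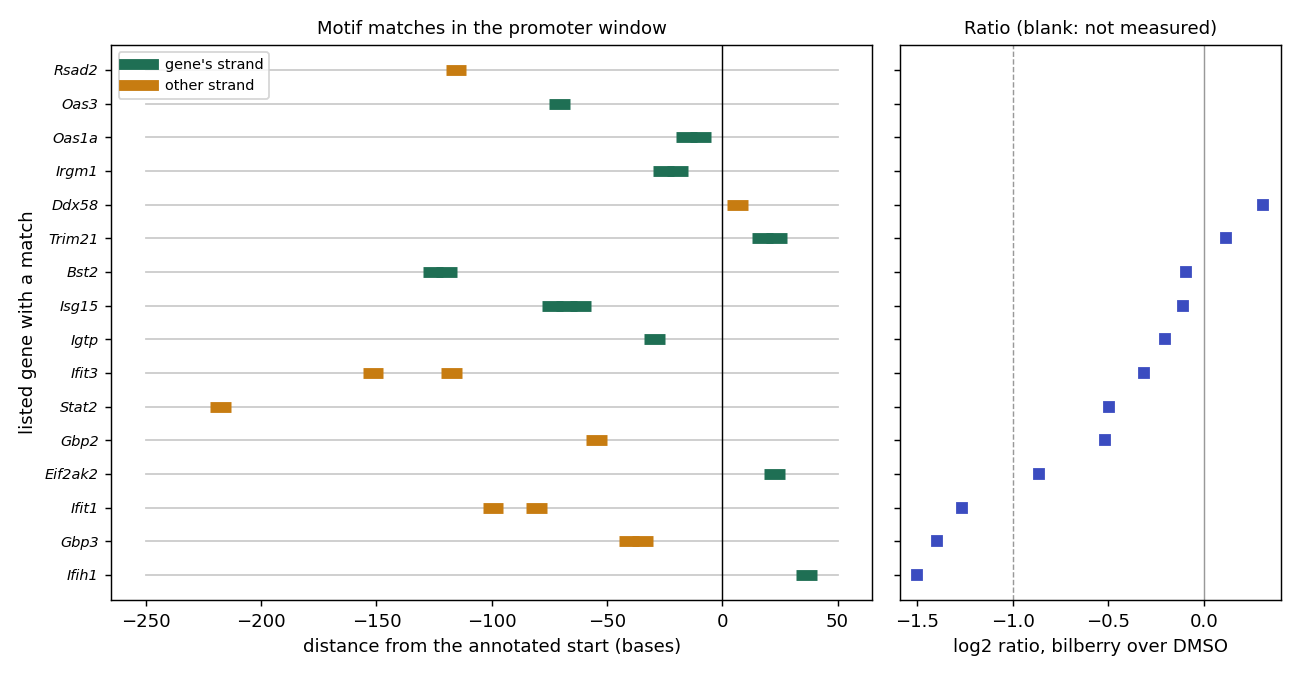
Left, position of each motif match in bases from the annotated start for the 16 listed genes that hold one, Irgm1 among them; colour gives the strand. Right, log2 ratio of bilberry over DMSO for the 12 of them measured on both arrays, with 2-fold dashed; Ifih1, Gbp3 and Ifit1 lie past it, and Isg15 and Bst2 lie near 0.

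Signals are given as log2 of the processed signal over the 75th percentile of the same array, so 0 is the 75th percentile. That percentile was 861 with DMSO, 576 under bilberry, 1009 under delphinidin and 1016 under cyanidin. The scanner software tests each spot against its background, and 22783 to 24949 of 41174 probes per array were well above it. The brightest probe of a gene, by its mean over the arrays, stands for it, and a ratio is read only where that probe was well above background on both arrays. A gene is called higher or lower where the linear ratio passed 2-fold, which is 1 on the log2 scale. The ± beside a ratio is the software's own error for the spots, which covers the reading of the array and not the cells. Levels of different probes depend on the probe and are not compared between genes. RNA came from whole wells, so fewer cells with a transcript and less of it per cell cannot be told apart.

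Of the 35 genes found, 34 had a value on all 4 arrays. The exception was Tap1, a peptide transporter of antigen presentation, whose only spot was marked as an outlier with DMSO and delphinidin. With the marked spots kept, its log2 ratio was 0.28 for bilberry, -0.30 for delphinidin and 0.00 for cyanidin. The interferon genes were detected broadly: 27 of the 34 (79.4%) passed the background test on every array, against 53.4% of all 26909 genes with a value. Oas1a, Oasl1 and Mx1 were well above background on some arrays. Irf5, Oas2, Oas3 and Rsad2 were so on none with the probe that represents them.

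**Figure D2:**
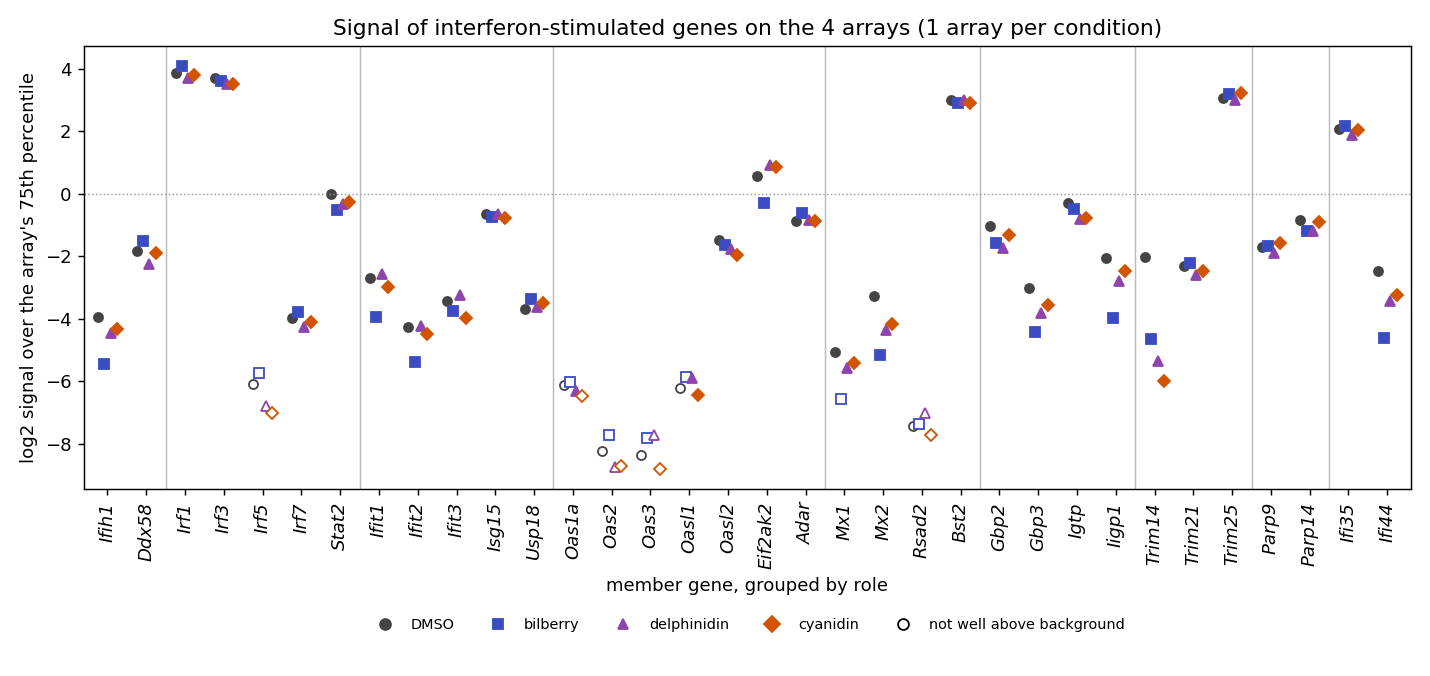
Scaled log2 signal of the 34 members with a value on all 4 arrays, grouped by role; each marker is 1 array and open markers are not well above background. The bilberry marker lies under the other 3 for Ifih1, Ifit1, Ifit2, Mx2, Gbp3, Iigp1 and Ifi44, and for Trim14 the DMSO marker lies above the other 3.

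Of the 27 members measured on both arrays, 8 were lower with bilberry by more than 2-fold and 0 were higher. Over all 14460 genes measured in this comparison 6.65% were lower and 4.67% were higher. The lower members were the RNA sensor Ifih1, the translation blockers Ifit1 and Ifit2, the GTPases Mx2, Gbp3 and Iigp1, the adaptor Trim14, and Ifi44. The members' median log2 ratio was -0.20 and that of all genes was 0.17, a difference of -0.37, and 22 of the 27 lay below the median of all genes. The log2 ratios ran from -2.63 for Trim14 to 0.33 for Usp18. The count of 8 depended on the background correction and on the constant added with it. Under the normexp method with 50 added to every signal, 1 member was lower in each of the 3 comparisons with DMSO. The shares of all genes were then 3.43% (bilberry), 0.747% (delphinidin) and 0.606% (cyanidin). With nothing added, which was tried after seeing the data, 5 members were lower with bilberry, where 5.48% of all genes were. The added 50 exceeded the unscaled bilberry signals of the 8, between 13.2 (Ifih1) and 37.4 (Ifit1), so it compresses their ratios.

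With delphinidin 2 of 28 members, Mx2 and Trim14, were lower by more than 2-fold and 0 were higher, where 2.04% of 15277 genes were lower and 1.2% higher. With cyanidin only Trim14 of the 28 members was lower and 0 were higher, where 2.35% of 15183 genes were lower and 0.685% higher. The members' median log2 ratio was -0.28 with delphinidin, against -0.05 for all genes, and -0.19 with cyanidin, against -0.02. All 3 comparisons used the same DMSO array, so a spot that is high or low there moves all 3 ratios of a gene, and they are not separate evidence.

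**Figure D3:**
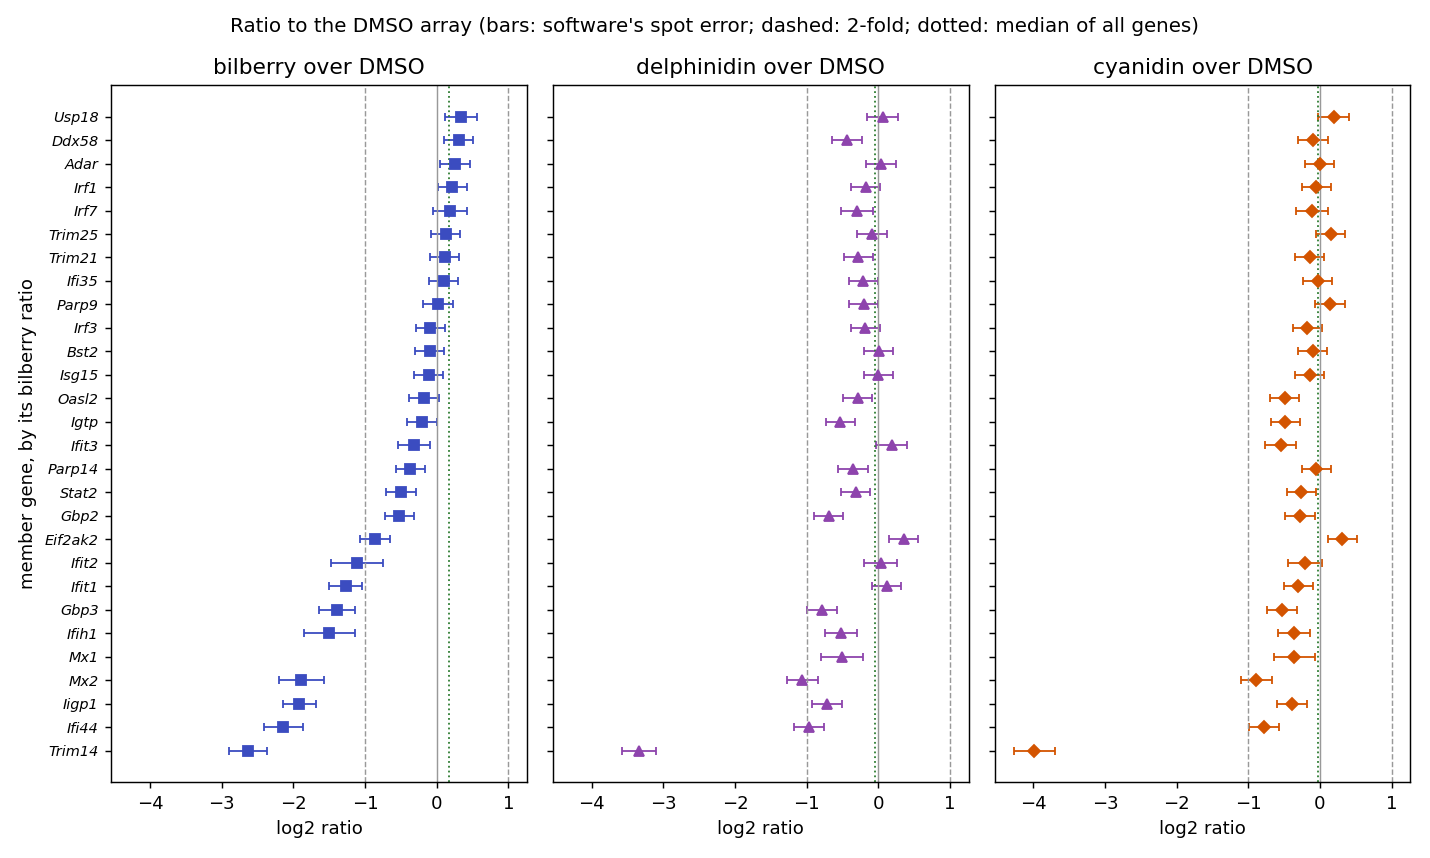
Log2 ratio to the DMSO array for each member well above background on both arrays, ordered by the bilberry ratio; bars are the software's spot error, dashed lines mark 2-fold and the dotted line is the median of all genes. Past 2-fold lower are 8 members with bilberry, Mx2 and Trim14 with delphinidin, and Trim14 with cyanidin.

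Among the sensors, Ifih1 encodes MDA5, which binds long double-stranded RNA in the cytosol. Its log2 signal was -3.95 with DMSO, -5.44 under bilberry, -4.46 under delphinidin and -4.31 under cyanidin. The bilberry array was the lowest, at a log2 ratio of -1.50 ± 0.36, and the other ratios were -0.52 ± 0.23 and -0.36 ± 0.22. This order did not hold under normexp with 50 added, where the ratios were -0.12 for bilberry, -0.35 for delphinidin and -0.34 for cyanidin. It held under normexp with nothing added, at -0.83, -0.47 and -0.44. This probe lies at chr2:62398403-62398462 on mm8, and a further Ifih1 probe was well above background on no array. Ddx58, which encodes RIG-I, read -1.81, -1.51, -2.25 and -1.91 in the same order of arrays, with a bilberry log2 ratio of 0.31 ± 0.21. Its probes did not give 1 answer, since the other detected ones had bilberry log2 ratios of -0.89 ± 0.27 and -0.34 ± 0.23. The level of Ddx58 with bilberry therefore has no settled direction. The third sensor of the family, Dhx58, stands on the array under its older symbol D11Lgp2e, and its detected probe had log2 ratios of -0.43, -0.38 and -0.09 with bilberry, delphinidin and cyanidin.

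The transcription factors that start and carry the response stayed within 2-fold. Irf1, itself induced by interferon gamma, had log2 signals of 3.86, 4.08, 3.69 and 3.81 with DMSO, bilberry, delphinidin and cyanidin. Irf3, which is present before infection and is activated by phosphorylation, read 3.70, 3.61, 3.52 and 3.52. The arrays lay close together for both genes. A further Irf3 probe had a bilberry log2 ratio of 0.68 ± 0.20, where the representative probe gave -0.09 ± 0.20. Irf7, which amplifies interferon production, had log2 ratios of 0.19, -0.29 and -0.11 for the 3 treatments. Stat2, the subunit of ISGF3 that is specific to interferon, had ratios of -0.50, -0.32 and -0.26. Its partner Irf9, listed under the older symbol Isgf3g, had ratios of -0.60, -0.20 and -0.20. Stat2 and Irf9 were thus lowest on the bilberry array without passing 2-fold.

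The IFIT proteins bind viral RNA and block its translation, and their genes lie together on chromosome 19. Ifit1 had log2 signals of -2.68 with DMSO, -3.95 under bilberry, -2.56 under delphinidin and -2.98 under cyanidin. Ifit2 read -4.27, -5.38, -4.23 and -4.48 on the same arrays. Both genes were lowest with bilberry, at log2 ratios of -1.27 ± 0.23 for Ifit1 (probe at chr19:34715303-34715362, mm8) and -1.11 ± 0.36 for Ifit2 (chr19:34641751-34641810). Their delphinidin ratios were 0.12 and 0.03, and their cyanidin ratios were -0.30 and -0.21. Ifit3 differed in its order: it read -3.44, -3.75, -3.25 and -3.98, so the lowest array was cyanidin, with ratios of -0.31 ± 0.23 for bilberry and -0.54 ± 0.22 for cyanidin. Under normexp with 50 added Ifit1 stayed lowest with bilberry, at -0.45, and the bilberry ratio of Ifit3 turned to 0.12. Ifit2 was then highest with bilberry among the treatments, with ratios of 0.10, -0.02 and -0.14 for bilberry, delphinidin and cyanidin. With nothing added Ifit2 was lowest with bilberry, at -0.46 against 0.14 and -0.07.

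Isg15, a small ubiquitin-like protein joined to other proteins during the response, was read by a single probe, which the file places on another chromosome than RefSeq gives the gene, so its values may not be those of Isg15. The log2 signals of that probe were -0.63, -0.75, -0.63 and -0.78, and the bilberry ratio was -0.11 ± 0.20. Usp18, the protease that removes Isg15 from its targets and also restrains the receptor, had log2 ratios of 0.33 ± 0.22, 0.06 and 0.19 with bilberry, delphinidin and cyanidin.

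The oligoadenylate synthetases sense double-stranded RNA and activate RNase L. Most were at the limit of detection: no array had Oas2 or Oas3 well above background, and Oas1a was so only with delphinidin. Oasl1, a relative that restrains Irf7 translation, was well above background only with delphinidin and cyanidin, at log2 signals of -5.89 and -6.45. Oasl2 was measured on all 4 arrays, with ratios of -0.17, -0.29 and -0.49 for bilberry, delphinidin and cyanidin. Oas1a belongs to a cluster of closely similar genes, so its probe may read more than 1 of them.

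Eif2ak2 encodes PKR, a kinase that stops translation when it meets double-stranded RNA. It read 0.56 with DMSO, -0.30 under bilberry, 0.91 under delphinidin and 0.87 under cyanidin. The bilberry array was the lowest and both anthocyanidin arrays were above DMSO, with log2 ratios of -0.86 ± 0.20, 0.36 ± 0.20 and 0.31 ± 0.20. None of these passed 2-fold. Adar, which edits adenosine in double-stranded RNA and so keeps the sensors quiet, had ratios of 0.26, 0.04 and 0.00.

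Mx2 encodes a dynamin-like GTPase that traps viral particles. Its log2 signals were -3.28 with DMSO, -5.17 under bilberry, -4.34 under delphinidin and -4.17 under cyanidin. DMSO was the highest array and bilberry the lowest, with ratios of -1.89 ± 0.32, -1.06 ± 0.22 and -0.89 ± 0.22 (probe at chr16:97715636-97715695, mm8). The delphinidin ratio lay just past 2-fold and the cyanidin ratio just inside it. Under normexp with 50 added DMSO was still the highest array but bilberry no longer the lowest, with ratios of -0.53, -0.69 and -0.62. With nothing added bilberry was the lowest, at -1.58, -1.01 and -0.88. Mx1, its neighbour on chromosome 16, was not well above background with bilberry, where only a bound can be given. Against the lowest signal well above background on that array, Mx1 was at least 1.33-fold lower with bilberry, and its ratios were -0.51 ± 0.29 with delphinidin and -0.36 ± 0.29 with cyanidin. The 2 Mx genes thus had DMSO as the highest of their 4 arrays.

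Rsad2 encodes viperin, which makes a chain terminator of viral RNA. Of its 3 probes, 1 was well above background only with delphinidin, at least 1.30-fold over DMSO and at least 1.83-fold over cyanidin, and the other 2 were so on no array. Bst2 encodes tetherin, which holds budding virus at the cell surface. It had log2 signals of 3.01, 2.92, 3.02 and 2.91, so its 4 arrays lay within their spot errors.

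The guanylate-binding proteins and the immunity-related GTPases attack the vacuoles of intracellular pathogens and respond strongly to interferon gamma. Gbp3 read -3.02 with DMSO, -4.42 under bilberry, -3.80 under delphinidin and -3.56 under cyanidin. Iigp1 read -2.07, -3.98, -2.78 and -2.46. For both genes DMSO was the highest array and bilberry the lowest, with bilberry ratios of -1.39 ± 0.25 for Gbp3 (probe at chr3:142510494-142510553, mm8) and -1.92 ± 0.23 for Iigp1. Their delphinidin ratios were -0.78 ± 0.21 and -0.72 ± 0.21, and their cyanidin ratios -0.53 ± 0.21 and -0.39 ± 0.21. Under normexp with 50 added Iigp1 stayed lowest with bilberry, at -0.93, while Gbp3 was lowest with delphinidin, at -0.55 against -0.43 with bilberry. With nothing added Gbp3 was lowest with bilberry, at -1.09 against -0.72 with delphinidin and -0.47 with cyanidin.

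The other GTPases had no ratio past 2-fold. Gbp2 had log2 signals of -1.04, -1.56, -1.74 and -1.32 with DMSO, bilberry, delphinidin and cyanidin, so delphinidin and not bilberry was its lowest array. Igtp read -0.29, -0.49, -0.82 and -0.77, again with DMSO highest and with ratios of -0.20 ± 0.20, -0.53 ± 0.20 and -0.48 ± 0.20. Irgm1, under its older symbol Irgm, had ratios of 0.10, -0.31 and -0.02 on its brightest probe and -0.30, -0.50 and -0.10 on a second one.

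Trim14, a mitochondrial adaptor of the sensor pathway, had the lowest ratio of any member in all 3 treatments. Its processed signal before scaling was 213 with DMSO, 23.0 under bilberry, 24.7 under delphinidin and 15.9 under cyanidin, and its log2 signals were -2.01, -4.65, -5.35 and -6.00. The DMSO array stood far above the other 3, and the ratios were -2.63 ± 0.26, -3.34 ± 0.24 and -3.98 ± 0.29 (probe at chr4:46543118-46543177, mm8). All 3 ratios rest on the same DMSO spot of the single Trim14 probe, and no other probe checks it. Trim25, the ubiquitin ligase that activates RIG-I, had log2 signals of 3.08, 3.20, 2.99 and 3.23. Trim21, an intracellular antibody receptor, had ratios of 0.11, -0.28 and -0.14. Neither of these TRIM genes passed 2-fold in any comparison.

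Parp9 and Parp14 are ADP-ribosyltransferases that take part in interferon signalling. Parp14 read -0.84, -1.20, -1.19 and -0.89, with a bilberry ratio of -0.36 ± 0.20 on its brightest probe and 0.31 ± 0.24 on another, so its probes disagreed in sign. Parp9 read -1.70, -1.68, -1.90 and -1.56, with no ratio to DMSO beyond its spot error.

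Ifi44, a cytoplasmic protein induced by type I interferon, was lower on every treated array. Its log2 signals were -2.46 with DMSO, -4.60 under bilberry, -3.43 under delphinidin and -3.25 under cyanidin. The ratios were -2.14 ± 0.28, -0.96 ± 0.21 and -0.78 ± 0.21 (probe at chr3:151668457-151668516, mm8), and the delphinidin ratio lay just inside 2-fold. A second Ifi44 probe also read highest with DMSO: it was not well above background with bilberry, at least 1.33-fold lower there, and its other ratios were -0.87 ± 0.32 and -0.53 ± 0.30. Ifi35, a leucine-zipper protein of the same response, read 2.08, 2.18, 1.88 and 2.05, and stayed close to the DMSO level on each array.

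The 8 members that were lower with bilberry were all read from dim spots, which describes the probes and not the amount of transcript. The mean log2 signal over the 4 arrays was below -2 for 12 of the 27 members, and 8 of these 12 were lower, while 0 of the other 15 were. That mean includes the bilberry array, but the DMSO signal alone was also below -2 for each of the 8. Among all genes 9.57% of 4191 below that level and 5.46% of 10269 above it were lower with bilberry. The level of -2 was chosen after the values were seen. Processed signals before scaling were between 13.2 for Ifih1 and 37.4 for Ifit1 on the bilberry array for these 8 members. In scaled log2 signal, the lowest value well above background on that array was -5.47, where Ifih1 read -5.44. When the background was instead corrected by the normexp method with 50 added to every signal, only Trim14 stayed past 2-fold, at -1.15. Under the same correction with nothing added, which was tried after seeing the data, 5 of the 8 stayed past 2-fold (Gbp3, Ifi44, Iigp1, Mx2 and Trim14), where 5.48% of all genes were lower, and Ifih1, Ifit1 and Ifit2 had ratios of -0.83, -0.98 and -0.46.

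**Figure D4:**
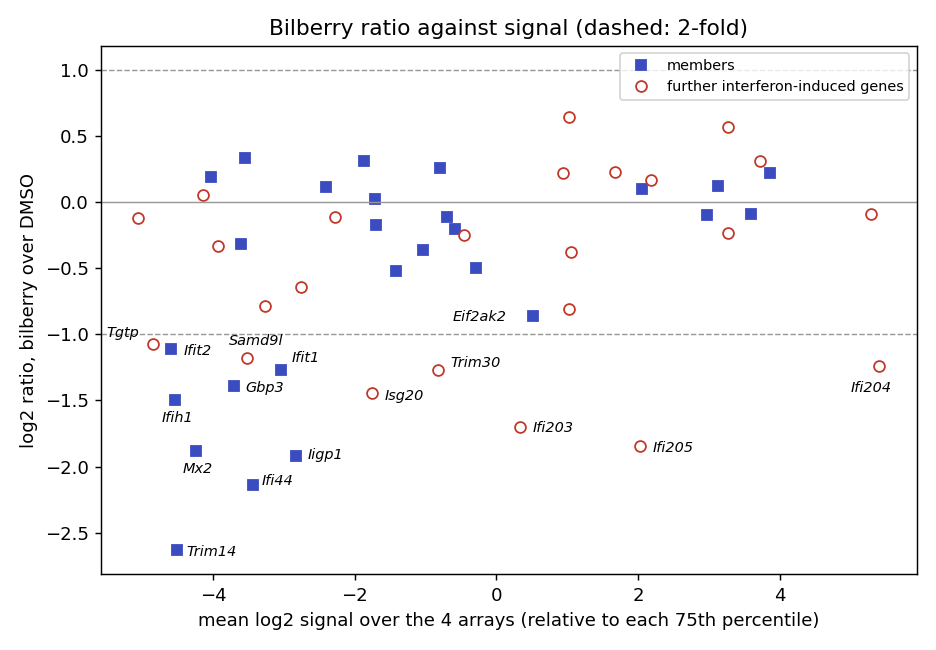
Log2 ratio of bilberry over DMSO (vertical) against the mean log2 signal over the 4 arrays (horizontal) for 27 members and 24 further interferon-induced genes; dashed lines mark 2-fold. All 8 members past 2-fold lie left of -2, while Ifi203, Ifi204, Ifi205, Isg20 and Trim30 of the further genes lie right of it.

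Where a probe sat on the array was also looked at, because a band of rows across the middle held more genes past 2-fold in the anthocyanidin comparisons. In that band 2.77% of all genes were lower with delphinidin and 3.16% with cyanidin, against 1.46% and 1.71% elsewhere. With bilberry the shares were 7.01% and 6.36%. The representative probes of 19 of the 34 members (55.9%) lay in the band, against 43.7% of all genes. Of the members lower with bilberry, Gbp3, Ifit1 and Trim14 lay in it (3 of 13 measured there) and Ifih1, Ifit2, Mx2, Iigp1 and Ifi44 lay outside it (5 of 14). Trim14, whose ratios were the lowest in the anthocyanidin comparisons, lay in it too, and the part of position in its values was not tested.

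The wider pathway was read from lists of other genes, none of them a member. Of 11 interferon genes 7 had a value, and Ifnb1, Ifna2, Ifna4 and Ifnk were well above background on no array. Ifng and Ifne1 were so on 1 array each, so no ratio is read for them. Ifne1 had its highest log2 signal with DMSO, at -5.91. The one measured on all 4, Ifnab, had ratios of 0.13, -0.32 and 0.27 with bilberry, delphinidin and cyanidin. Of 13 receptor and signalling genes 12 were measured on all 4 arrays, and 1 of the 12 was lower with bilberry and 0 higher, where 6.65% and 4.67% of all genes were. That was Jak2, a kinase of the interferon gamma receptor among others, with ratios of -1.29 ± 0.20, -0.78 and -0.49. Ifngr1 and Socs3, the brightest of this list, had bilberry ratios of -0.15 and -0.23. None of 9 further sensing genes measured with bilberry, or of 10 measured with delphinidin and with cyanidin, passed 2-fold against DMSO. Over all genes 6.65%, 2.04% and 2.35% were lower with bilberry, delphinidin and cyanidin, and 4.67%, 1.2% and 0.685% were higher. The brightest sensing genes, Myd88 (an adaptor of Toll-like receptors) and 2610307O08Rik, had bilberry ratios of 0.52 and 0.56.

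The 11 measured genes of antigen presentation had a median bilberry ratio of 0.25, against 0.17 for all genes, with 0 lower and 0 higher by more than 2-fold where 6.65% and 4.67% of all genes were. The list's brightest genes, Psme2 and H2-K1, had ratios of 0.44 and 0.42. Cd274, the checkpoint ligand PD-L1, was the only one past 2-fold. It was higher with delphinidin at 1.33 ± 0.21, where 1.2% of all genes were higher and 2.04% lower. Its ratios were 0.86 for bilberry and 0.69 for cyanidin. Its delphinidin ratio was 0.97, inside 2-fold, under normexp with 50 added.

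Of 24 further interferon-induced genes measured with bilberry, 7 were lower by more than 2-fold and 0 were higher, with a median ratio of -0.29. Like the members, this list was chosen with earlier results of these data known, so it is not separate evidence. Over all genes 6.65% were lower, 4.67% were higher and the median was 0.17. Under normexp with 50 added, Samd9l (-0.36) and Tgtp (0.04) were no longer past 2-fold and Tgtp changed sign, while the other 5 were. With nothing added Samd9l was past 2-fold at -1.08, and Tgtp, at -0.52, was not. Of the 7, 3 belong to the HIN-200 family of DNA-binding proteins. Ifi204 had log2 signals of 5.76 with DMSO, 4.51 under bilberry, 5.64 under delphinidin and 5.70 under cyanidin. Ifi205 read 2.45, 0.60, 2.60 and 2.42. Ifi203 read 0.89, -0.81, 0.67 and 0.56. In all 3 genes the bilberry array lay far below the other arrays, which lay close together, and the bilberry ratios were -1.24 ± 0.20, -1.85 ± 0.20 and -1.70 ± 0.20. These probes were far above background, and the ratios were -1.29, -1.78 and -1.52 under normexp with 50 added. The family's genes are alike in sequence, and how far each probe also reads its neighbours was not tested.

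The other 4 lower genes of that list were Isg20, an exonuclease, at -1.44 ± 0.21, Trim30 at -1.27 ± 0.20, Samd9l at -1.18 ± 0.25 and Tgtp, a GTPase, at -1.08 ± 0.33. With delphinidin Isg20 and Tgtp were lower by more than 2-fold, at -1.29 and -1.15, and with cyanidin 0 of the 24 were, where 2.04% and 2.35% of all genes were lower. The delphinidin ratio of Tgtp was inside 2-fold under normexp with 50 added (-0.54), quantile normalization (-0.97) and spike-in scaling (-0.88). Ifitm2, next to Ifi204 the brightest of the list, had ratios of -0.09, -0.62 and -0.37. The chemokine Cxcl10, a sensitive target of interferon, had ratios of 0.05, 0.43 and 0.26.

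Delphinidin and cyanidin were given at the same 100 nM and differ by a hydroxyl group on the B ring, which delphinidin has in addition. Compared directly, 0 of 29 members were higher and 0 lower by more than 2-fold, where 0.601% of 15474 genes were higher with cyanidin and 0.691% lower. The members' median log2 ratio of cyanidin over delphinidin was 0.13, against 0.02 for all genes, and the range was -0.73 to 0.41. At the lower end were Ifit3 at -0.73 ± 0.21, Trim14 at -0.64 ± 0.32, Oasl1 at -0.57 ± 0.40 and Ifit1 at -0.42 ± 0.21. At the upper end were Gbp2 at 0.41 ± 0.20, Parp9 at 0.34 ± 0.20, Ddx58 at 0.34 ± 0.20 and Iigp1 at 0.32 ± 0.21. All 3 IFIT genes read lower with cyanidin than with delphinidin and all 4 measured guanylate-binding and immunity-related GTPases read higher, although Igtp (0.05 ± 0.20) lay within its spot error. Of the 29 members 10 (34.5%) read lower with cyanidin, against 45.8% of all genes. The sensors, transcription factors and PARP genes counted as measured members, Ifi35 and Ifi44 all read higher too, so this was not particular to the GTPases. Of these, only Ddx58, Parp9 and Parp14 lay beyond their spot errors. Under their older symbols, Irf9 read -0.01 and Dhx58 0.30. With 1 array each these differences have no interval between cultures, and they do not show that the compounds acted alike or apart. Bilberry extract was dosed by mass as a mixture, so its values stand beside those of the anthocyanidins with no matched dose.

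**Figure D5:**
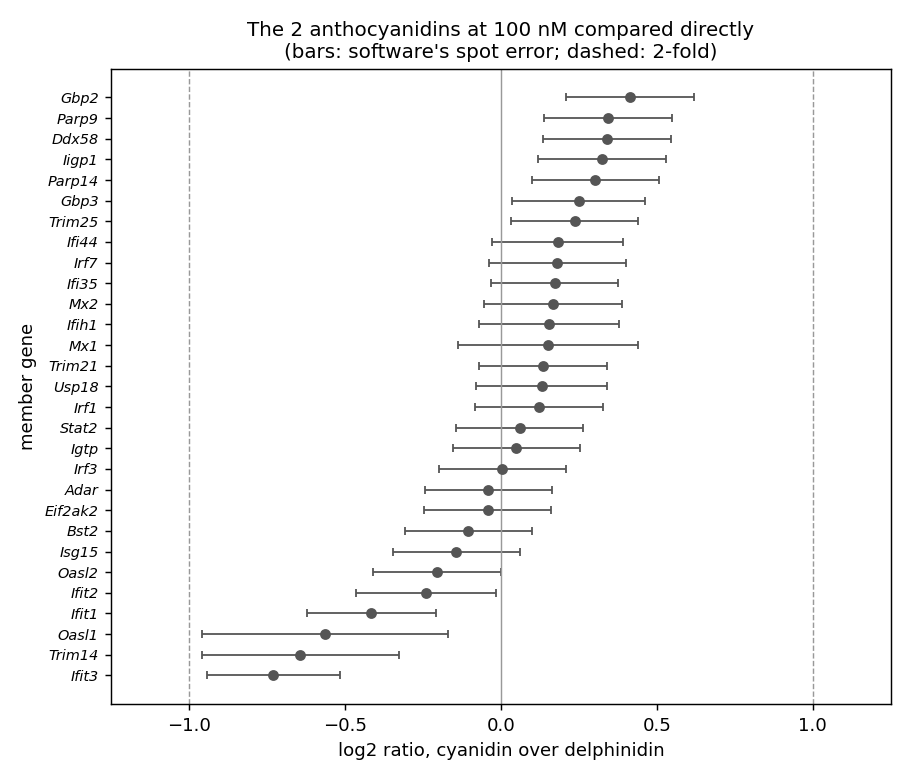
Log2 ratio of cyanidin over delphinidin for the 29 members well above background on both arrays; bars are the software's spot error and dashed lines mark 2-fold. No member passes 2-fold, Ifit3 is lowest at -0.73 and Gbp2 highest at 0.41.

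All directions above are relative to the 75th percentile of each array. Spike-in controls, of which 10 probes were read, had an unscaled log2 signal 0.95 higher on the bilberry array than with DMSO, where the difference was -0.03 for delphinidin and 0.01 for cyanidin. Scaled to them, the median of all genes with bilberry was -1.36 in place of 0.17, and all 27 measured members passed 2-fold lower, as did 76.8% of all genes. The members' medians became -0.02 with delphinidin and 0.05 with cyanidin, where the sign changed, while their distance from the median of all genes stayed the same by construction.

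The labelled cell type was checked against its markers. All 8 preadipocyte and fibroblast markers and all 8 adipocyte markers passed the background test on every array, with median bilberry ratios of -0.06 and -0.17. Of the first list Thy1 (-1.20), and of the second Adipoq (-1.07) and Slc2a4 (-1.54), were lower with bilberry by more than 2-fold and none was higher, where 6.65% of all genes were lower and 4.67% higher. The other markers lay between -0.53 (Fn1) and 0.54 (Col1a2) in the first list and between -0.95 (Fabp4) and 0.50 (Cebpa) in the second, and Adipoq was at -0.97, inside 2-fold, under normexp with 50 added. Of 9 macrophage and leukocyte markers 5 (Cd68, Cd14, Csf1r, Cd3e and Lyzs) were well above background on all 4 arrays. The rest of that list, Ptprc, Emr1, Itgam and Cd79a, were so on no array, and of 4 endothelial markers none was on any. Of the leukocyte markers detected, Csf1r was higher with bilberry, at 1.16 ± 0.37, and none was lower. That ratio was 0.72 under normexp with 50 added, inside 2-fold. The part of differentiation state in the interferon genes' ratios was not tested.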

How the data were processed

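Each condition had 1 array, which carried its Cy3-labeled RNA. Agilent's Feature Extraction software turned the scans into spot values. The authors deposited an intensity for every spot, from which that software had subtracted the background and removed spatial trends. A deposited table of the series holds the same intensity. Intensities were divided by the 75th percentile, as the study's methods also did over all measurements after a floor on low values, but here over the 43379 non-control spots of an array and with no floor, then taken to log2. The software had marked 701 to 875 spots of an array as outliers, and these were not used. The SD of replicate spots was 0.033 to 0.039 on the log2 scale. No depth applies to an array.

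The members and gene lists were chosen with earlier results of these data known. Members were matched by gene name, and probe coordinates are those of the files (mm8). All members with a probe are named, with values on every array for members past 2-fold and the brightest of each role, and from the other pathway lists the genes past 2-fold and the 2 brightest. Some items of the wider lists are not reported here. Further genes (Cxcl10, Csf1r and others) were chosen after their values were seen. The band of array rows ran from 191 to 418. Older symbols, normexp with no offset and the level of -2 were chosen after seeing the data. Alternatives were no filter on dim probes, normexp (offset 50), quantile normalization, spike-in scaling, marked spots kept, the median over probes, the band left out and the deposited table. Calculations were tested on simulated data. Python 3.11.15, numpy 2.4.6, pandas 2.3.3, matplotlib 3.10.9, R 4.3.3 and limma 3.58.1 were used.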

Additional observations from a re-analysis of the deposited data

How the results depend on the processing

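The members' median log2 ratio minus that of all genes kept its sign in all 4 comparisons under every alternative run. Without a filter on dim probes it was -0.53 with bilberry, -0.042 with delphinidin, -0.066 with cyanidin and 0.036 for cyanidin over delphinidin, and 1 member (Oas3) was lower in the last comparison (all genes: 3.96%). Under normexp with 50 added it was -0.31, -0.15, -0.11 and 0.040, with 1 member lower with bilberry and 1 with delphinidin (all genes: 3.43% and 0.747%), and Ifit2 (0.10) and Tgtp (0.039) changed sign with bilberry. With nothing added it was -0.33 with bilberry and -0.18 with delphinidin, and 5 members were lower with bilberry (all genes: 5.48%). Ifit2 (-0.46) and Tgtp (-0.52) then kept their sign with bilberry. Quantile normalization left 1 member lower with delphinidin (all genes: 1.55%). Spike-in scaling gave 27 members lower with bilberry and 1 with delphinidin (all genes: 76.8% and 1.06%). The median over probes gave -0.23 with cyanidin and 3 members lower with delphinidin (all genes: 2.3%). Without the middle band of rows it was -0.26 with bilberry, and only 17 members were measured, against 27 with bilberry and 28 with each anthocyanidin before. Of these 17 members, 5, 1 and 0 were lower with bilberry, delphinidin and cyanidin (all genes: 6.53%, 1.4% and 1.63%). Members under older symbols moved it to -0.43 with bilberry. Causes of these moves were not tested. All 8 members lower with bilberry stayed so under quantile normalization, with marked spots kept, without a filter (which added Mx1) and in the deposited table, and 7 did under the median over probes, without Ifit2. No paired analysis was possible because each group had 1 array.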
